A study of Mus musculus with 24 samples.

Results

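The genes described here are 10 chaperones and cochaperones of the HSP90 and HSP70 machinery, taken by name from the deposited expression table: Hsp90aa1, Hsp90ab1, Hspa8, Hspa4, Hsph1, Dnaja1, Dnajb1, Dnajc2, Fkbp4 and Stip1. They are 10 of 21671 genes in the table, and all 10 were among the 12268 genes tested. They were measured by RNA-seq in 24 libraries of 3T9 cells, an immortalised line of mouse fibroblasts. All cells had been infected with a vector and were kept in OHT (4-hydroxytamoxifen), so the controls had OHT too. EV cells carried an empty vector. WT, HEA and RA cells carried MycER, the transcription factor Myc joined to the part of the oestrogen receptor that OHT switches on, in the unaltered form or as the HEA or RA mutant. The series title sets non-specific against sequence-specific DNA contacts of Myc, with the altered residues of HEA and RA not given in the sources used here. Each of these populations was taken at 4 h and at 8 h of OHT, with 3 libraries in each of the 8 groups. Whether the 3 libraries of a group were separate cultures is not in the labels, and the spread behind each p-value may therefore be technical. Libraries without OHT were not used here, and the sources used here give neither the promoter of the vector nor the number of clones in a population.

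HSP70 proteins bind unfolded stretches of other proteins in a cycle driven by ATP. J-domain proteins bring clients to HSP70 and start ATP hydrolysis, exchange factors of the HSP110 type release ADP, and the bridging protein encoded by Stip1 hands clients on to HSP90. HSP90 then completes the folding of kinases and steroid receptors with cochaperones such as the immunophilin encoded by Fkbp4, and the hormone-binding part of the oestrogen receptor is a classical HSP90 client. Many of these genes are induced by the heat shock factor HSF1, which binds arrays of inverted GAA units, whereas Myc with its partner Max prefers CACGTG.

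RefSeq promoter windows (GRCm38.p6, 250 bases before to 50 after each annotated start) were matched by symbol for 6 of the 10 genes, with 10 windows in all. Hsp90aa1, Hsp90ab1, Hspa8 and Dnajc2 had none. The 250 bases before a start are shown for 4 genes because they differ in these letters and in how they moved: Dnajb1 and Fkbp4 went in opposite directions in WT, Dnaja1 was lower in HEA, and Hsph1 carried both kinds of motif. Capitals mark CACGTG, GAANNTTC and TTCNNGAA, each of which reads the same on both strands.
Hsph1, chr5:149636316-149636565, minus strand: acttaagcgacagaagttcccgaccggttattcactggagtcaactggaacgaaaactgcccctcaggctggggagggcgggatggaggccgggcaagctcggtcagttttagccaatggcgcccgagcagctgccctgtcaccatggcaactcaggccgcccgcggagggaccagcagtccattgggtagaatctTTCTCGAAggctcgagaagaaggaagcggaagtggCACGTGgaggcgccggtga
Fkbp4, chr6:128438657-128438906, minus strand: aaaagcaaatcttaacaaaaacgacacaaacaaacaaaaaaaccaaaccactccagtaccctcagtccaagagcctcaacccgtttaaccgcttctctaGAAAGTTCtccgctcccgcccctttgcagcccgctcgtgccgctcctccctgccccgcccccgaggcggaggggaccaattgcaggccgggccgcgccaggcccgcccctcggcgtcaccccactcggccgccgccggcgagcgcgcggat
Dnaja1, chr4:40722218-40722467, plus strand: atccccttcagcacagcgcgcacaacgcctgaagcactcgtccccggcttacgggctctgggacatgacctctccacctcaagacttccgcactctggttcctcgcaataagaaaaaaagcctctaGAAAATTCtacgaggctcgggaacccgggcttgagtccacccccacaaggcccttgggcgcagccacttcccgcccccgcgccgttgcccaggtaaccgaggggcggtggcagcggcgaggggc
Dnajb1, chr8:83607925-83608174, plus strand: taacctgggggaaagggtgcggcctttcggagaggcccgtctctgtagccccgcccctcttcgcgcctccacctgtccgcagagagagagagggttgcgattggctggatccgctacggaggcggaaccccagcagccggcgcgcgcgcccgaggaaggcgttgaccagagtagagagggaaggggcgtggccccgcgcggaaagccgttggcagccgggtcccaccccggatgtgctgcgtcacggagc

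Among the 6 genes with windows, CACGTG was found in Hsph1 alone, 19 bases before the start of the window shown. Over all 32851 windows of the table, 7.15% held it, beside 2 of the 10 windows of these genes. TTCTCGAA of the TTCNNGAA type lay 54 bases before that start. After the start the same window held an overlapping pair, TTCTGGAA and GAAAGTTC. In the other Hsph1 window CACGTG lay 2 bases after the start. GAANNTTC was found in Hsph1, in Fkbp4 (GAAAGTTC, 151 bases before the start) and in the Dnaja1 window shown (GAAAATTC, 124 bases before). The other Dnaja1 windows, with starts further downstream, held none of these letters. Of the 10 windows, 4 held GAANNTTC, 2 held TTCNNGAA and 4 held at least 1 of them. Over all windows the shares were 7.86%, 8.52% and 15.1% in that order. The windows of Dnajb1, Hspa4 and Stip1 held none of these letters. A match is a description of the window, and its absence says nothing about binding elsewhere.

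Whole reads were recovered from the RPKM values, and library totals ran from 9.82 to 12.8 M reads (median 10.9). Esr1, which lends the construct its hormone-binding domain, was at 0.0990 to 0.385 RPKM in the 6 EV libraries and at 9.04 to 13.7 in the 18 MycER libraries. Of 12 fibroblast markers 9 reached 1 RPKM on average, and Lum, Dcn and Thy1 did not. No epithelial or endothelial marker reached 1 RPKM, whereas Cd68 (10.9) and Csf1r (1.35) of the macrophage list, Acta1 (4.09) of muscle and Fabp4 (3.51) of adipocytes did. The summed macrophage list was 8.34 to 16.6 RPKM across libraries, beside 693 to 886 for the fibroblast list, and its part in the results was not tested. Levels below are RPKM (reads per kb of gene and per M reads) as mean ± SD with n = 3. Differences are log2 fold changes ± SE on the scale of log2(RPKM + 0.5), with adjusted p-values from limma over all 12268 genes and a threshold of 0.05. In these bulk samples, less RNA per cell and fewer cells with the RNA cannot be told apart.

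**Figure D1:**
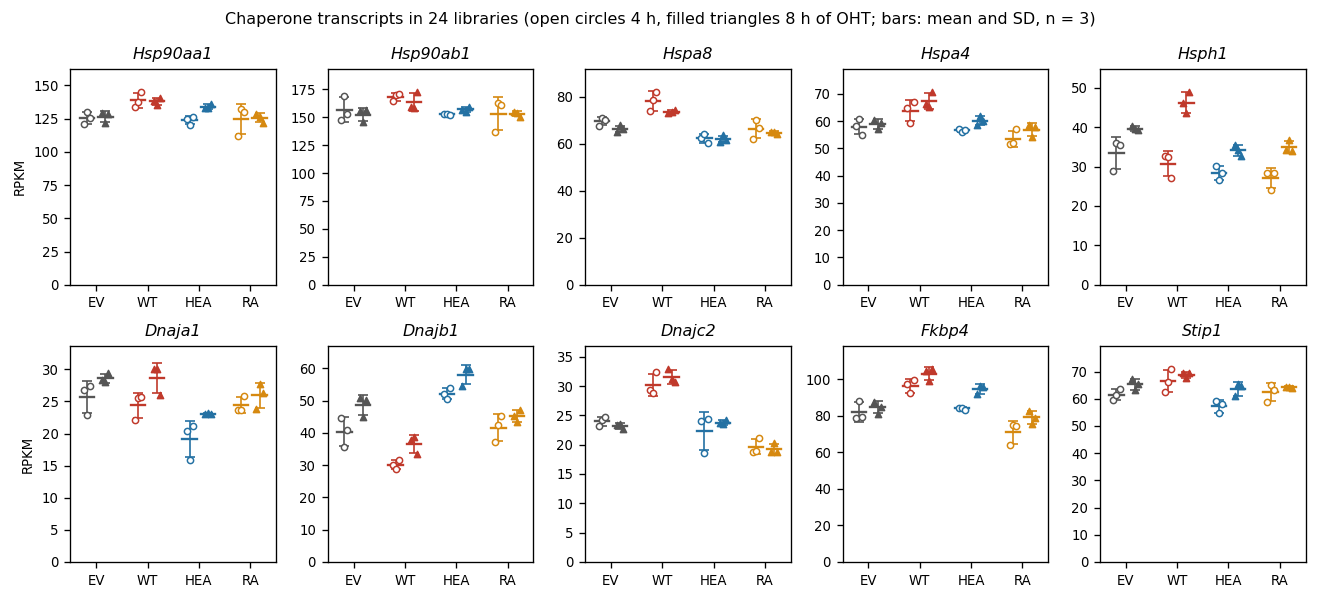
RPKM of the 10 genes (y axis, linear from 0) by population (x axis) in all 24 libraries. Open circles are libraries at 4 h, filled triangles at 8 h, and bars give the mean and SD of 3 libraries. Dnajb1 is lowest in WT and highest in HEA, Dnajc2 and Fkbp4 are highest in WT and lowest in RA, and Hsp90aa1 and Hsp90ab1 vary little.

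WT MycER was compared with EV at each time. In WT the J-domain gene Dnajb1 was lower than in EV at both times, while Dnajc2, Fkbp4 and Hspa8 were higher at both. Hsp90aa1 passed at 4 h and Hspa4 at 8 h, both higher. At 4 h 4 of the 10 genes were higher, 1 was lower and 5 did not pass, where 26.1% of all tested genes passed (11.6% higher and 14.4% lower). At 8 h the counts were again 4, 1 and 5, where 35.2% of all genes passed (15.2% higher and 20.1% lower). The median log2 fold change of the 10 genes was 0.12 at 4 h and 0.14 at 8 h, beside -0.01 and -0.02 over all tested genes.

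HEA was compared with EV in the same way. Dnajb1 was higher in HEA and Dnaja1 lower at both times. Hspa8 and Hsph1 were lower at 4 h and Fkbp4 was higher at 8 h. The counts were 1 higher, 3 lower and 6 not passing at 4 h, with 43.2% of all genes passing (17.7% higher and 25.5% lower). At 8 h they were 2, 1 and 7, with 47.7% of all genes passing (20.2% higher and 27.5% lower). These shares of 10 genes were below or near those of all genes. The medians of the 10 genes, -0.07 and 0.03, were beside -0.06 and -0.05 over all genes.

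RA had the fewest calls against EV. At 4 h Dnajc2 and Fkbp4 were lower and 8 genes did not pass, where 5.31% of all genes passed (2.58% higher and 2.73% lower). At 8 h limma called 0 of the 10 genes, where 2.78% of all genes passed. Without adjustment 1 of the 10 genes, Dnajc2, had a p below 0.05 at 8 h, as did 2155 of all 12268 genes. Voom on recovered reads called 0 of the 10. The 3 comparisons with EV at a given time share the same 3 EV libraries, so their values are not independent of each other. In the authors' deposited table the 4 h calls were fewer, with 1 higher and 1 lower in WT, 1 and 1 in HEA and 0 in RA. Hspa8, Hsp90aa1 and Fkbp4 in WT, Hspa8 and Hsph1 in HEA, and Dnajc2 and Fkbp4 in RA did not pass there at 4 h. At 8 h it had 5 higher and 1 lower in WT, 2 and 2 in HEA, and 0 and 2 in RA. Shares over all genes were not computed for it.

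**Figure D2:**
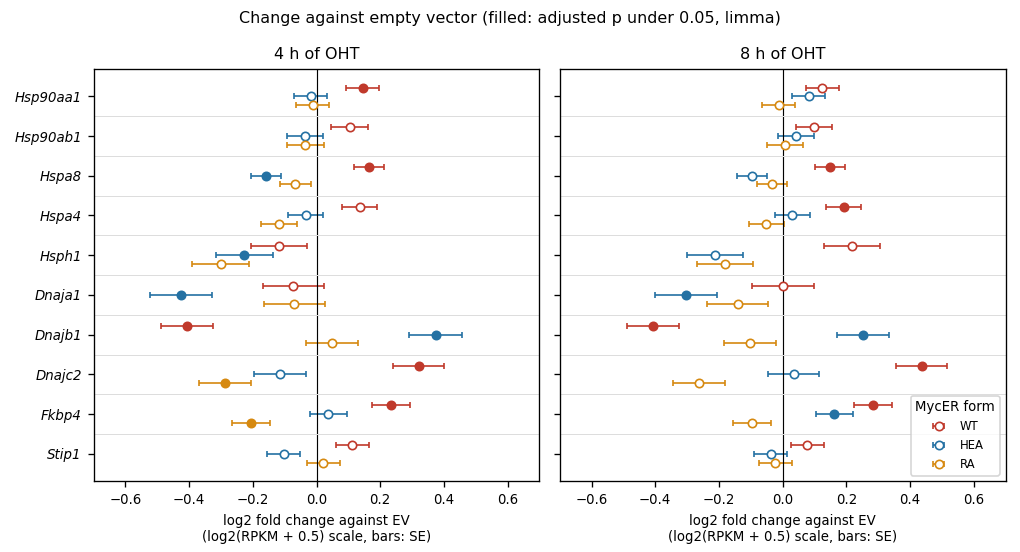
Log2 fold change against EV (x axis, log2(RPKM + 0.5) scale, bars are SE) of each gene (y axis) at 4 h and 8 h, with WT in red, HEA in blue and RA in orange. Filled points have an adjusted p under 0.05. Dnajb1 lies at -0.41 in WT at both times and at 0.37 and 0.25 in HEA.

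Dnajb1 encodes the inducible HSP40 that works with HSP70 and restrains HSF1. At 4 h its RPKM was 44.5, 35.6 and 40.9 in EV, 30.2, 28.9 and 31.6 in WT, 52.1, 50.6 and 53.9 in HEA and 37.2, 42.5 and 45.3 in RA. At 8 h it was 50.8, 45.1 and 50.3 in EV, 37.8, 38.6 and 33.5 in WT, 54.6, 59.7 and 59.8 in HEA and 45.3, 43.5 and 47.1 in RA. All WT libraries lay below all EV libraries and all HEA libraries above them at the same time, whereas RA overlapped EV. The order of the means was WT, EV, RA, HEA at 4 h and WT, RA, EV, HEA at 8 h, and EV and RA did not differ beyond their spread at either time.

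The WT difference from EV in Dnajb1 was -0.41 ± 0.082, adjusted p = 0.00106 at 4 h and -0.41 ± 0.082, adjusted p = 0.000628 at 8 h. In HEA it was 0.37 ± 0.082, adjusted p = 0.001 at 4 h and 0.25 ± 0.082, adjusted p = 0.0159 at 8 h. The RA values, 0.05 ± 0.082 and -0.10 ± 0.082, did not pass. Direct comparison of WT with HEA gave -0.78 ± 0.082, adjusted p = 1.64e-07 at 4 h and -0.66 ± 0.082, adjusted p = 1.19e-06 at 8 h. The 4 h value had the lowest adjusted p of any of the 10 genes between forms. WT was also below RA (-0.45 ± 0.082, adjusted p = 0.000238 at 4 h and -0.30 ± 0.082, adjusted p = 0.00516 at 8 h), and HEA was above RA (0.33 ± 0.082 and 0.35 ± 0.082). The HEA call at 8 h was lost on leaving out replicate 2 of EV (adjusted p = 0.0833), replicate 2 of HEA (0.0546) or replicate 3 of HEA (0.054). Dnajb1 was at 0.484 reads per base, and its reads per library ran from 712 to 1610.

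Dnaja1 encodes a constitutive J-domain protein of the cytosol. Its 4 h values were 26.9, 22.9 and 27.5 in EV, 22.2, 25.5 and 25.6 in WT, 20.3, 15.9 and 21.1 in HEA and 23.7, 23.7 and 25.9 RPKM in RA. At 8 h they were 28.3, 28.1 and 29.4 in EV, 30.0, 30.0 and 26.0 in WT, 23.0, 23.2 and 23.1 in HEA and 23.8, 27.7 and 26.3 in RA. HEA was low at both times, with all 3 libraries below all EV libraries, and WT overlapped EV at both. The HEA difference was -0.43 ± 0.096, adjusted p = 0.00132 at 4 h and -0.30 ± 0.096, adjusted p = 0.0136 at 8 h. In WT it was -0.07 ± 0.096 and 0.00 ± 0.096, and in RA -0.07 ± 0.096 and -0.14 ± 0.096, none of which passed. WT was above HEA at both times (0.35 ± 0.096, adjusted p = 0.00492 and 0.30 ± 0.096, adjusted p = 0.0129), and HEA was below RA at 4 h (-0.36 ± 0.096, adjusted p = 0.00489). The call of WT against HEA was lost at 4 h with only the groups compared (adjusted p = 0.0753), and at 8 h on leaving out replicate 1 (0.0534) or 2 (0.0512) of WT. At 8 h the HEA difference from EV did not pass with the library total as a covariate, an alternative chosen after seeing the data (adjusted p = 0.0673).

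Dnajc2 encodes a J-domain protein that sits on the ribosome near the exit of the nascent chain. In EV its level was 24.02 ± 0.78 RPKM at 4 h and 23.2 ± 0.47 at 8 h. At 4 h the libraries were at 23.2, 24.2 and 24.7 in EV, 29.3, 28.8 and 32.3 in WT, 23.98, 18.6 and 24.3 in HEA and 18.8, 19.0 and 21.1 in RA. At 8 h they were at 23.4, 23.5 and 22.7 in EV, 32.9, 31.2 and 30.7 in WT, 23.6, 23.5 and 24.2 in HEA and 18.7, 20.3 and 18.8 in RA. The WT libraries were the highest and did not overlap any other group, and the RA libraries lay below all EV libraries at both times. HEA overlapped EV. At 4 h replicate 2 of HEA, at 18.6, was below the other two of its group.

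Dnajc2 was higher in WT than in EV by 0.32 ± 0.081, adjusted p = 0.00614 at 4 h and 0.44 ± 0.081, adjusted p = 0.000294 at 8 h. The 4 h call did not pass with only the groups compared (adjusted p = 0.0544) or without the 3 farthest libraries (0.0559). In HEA the values were -0.11 ± 0.081 and 0.03 ± 0.081, and did not pass. RA was lower at 4 h (-0.29 ± 0.081, adjusted p = 0.0425), a call lost under 17 of 37 alternatives, and at 8 h its value of -0.26 ± 0.081 did not pass (adjusted p = 0.0812). In the authors' deposited table the RA value at 8 h was -0.26 ± 0.071, adjusted p = 0.00339, and that at 4 h did not pass (-0.29 ± 0.099, adjusted p = 0.0549). The separation of WT from RA was 0.61 ± 0.081, adjusted p = 1.03e-05 at 4 h and 0.70 ± 0.081, adjusted p = 1.11e-06 at 8 h, the highest positive difference among the 10 genes. WT was above HEA by 0.44 ± 0.081 and 0.40 ± 0.081, and HEA was above RA at 8 h (0.30 ± 0.081, adjusted p = 0.00527).

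Hspa8 encodes the constitutive HSC70, the HSP70 that is always present in the cytosol. At 4 h it was at 67.7, 70.9 and 70.2 RPKM in EV, 73.9, 78.5 and 82.1 in WT, 62.4, 64.3 and 60.4 in HEA and 62.2, 70.4 and 67.0 in RA. At 8 h it was at 65.1, 67.9 and 66.2 in EV, 73.2, 73.4 and 74.3 in WT, 61.0, 63.6 and 61.7 in HEA and 65.1, 65.2 and 64.1 in RA. At each time all WT libraries were above and all HEA libraries below those of EV, and RA overlapped EV. WT was higher than EV by 0.17 ± 0.047, adjusted p = 0.0135 at 4 h and 0.15 ± 0.047, adjusted p = 0.0187 at 8 h. HEA was lower at 4 h (-0.16 ± 0.047, adjusted p = 0.0108), and its 8 h value of -0.10 ± 0.047 did not pass. Between the forms, WT was above HEA by 0.32 ± 0.047, adjusted p = 1.20e-05 at 4 h and 0.24 ± 0.047, adjusted p = 0.000226 at 8 h, and above RA by 0.23 ± 0.047 and 0.18 ± 0.047.

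The calls of Hspa8 against EV were close to the threshold. The WT call at 4 h was lost under 7 of 37 alternatives, among them leaving out replicate 1 of EV (adjusted p = 0.0578) or replicate 3 of WT (0.0849). Its 8 h call was lost on leaving out replicate 1 (0.0716) or 3 (0.0537) of EV or replicate 3 of WT (0.0526). The HEA call at 4 h was lost with median centring (0.118), with only the groups compared (0.0676) or after removal of the trend on reads per base (0.0934).

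Hspa4 and Hsph1 encode HSP110 proteins, relatives of HSP70 that act as its exchange factors. Hspa4 was at 60.5, 57.1 and 59.2 RPKM in EV at 8 h, 66.3, 65.3 and 70.7 in WT, 58.6, 61.8 and 60.2 in HEA and 58.5, 54.2 and 58.0 in RA. At 4 h it was at 58.2, 60.8 and 55.0 in EV, 64.9, 59.4 and 67.0 in WT, 57.2, 55.9 and 56.7 in HEA and 51.5, 51.8 and 57.0 in RA. The mean was highest in WT at both times, without overlap with EV at 8 h and with overlap at 4 h. The WT difference from EV was 0.19 ± 0.055, adjusted p = 0.0102 at 8 h and 0.14 ± 0.055 at 4 h, which did not pass (adjusted p = 0.0773). WT was above RA at 4 h (0.25 ± 0.055, adjusted p = 0.00137) and at 8 h (0.24 ± 0.055, adjusted p = 0.00139), and above HEA by 0.17 ± 0.055 and 0.16 ± 0.055. HEA and RA did not pass against EV, with values of -0.03 ± 0.055 and 0.03 ± 0.055 in HEA and -0.12 ± 0.055 and -0.05 ± 0.055 in RA. The 8 h call of WT against EV was lost on leaving out replicate 3 of WT (adjusted p = 0.0557). Against HEA the call was lost under 5 of 37 alternatives at 4 h and 6 at 8 h, among them leaving out replicate 3 of WT at 4 h (0.0848), and at 8 h replicate 3 of WT (0.0924) or replicate 1 of HEA (0.0735).

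Hsph1 had the largest step from 4 h to 8 h of the 10 genes in WT and in RA, while that of Dnajb1 was largest in EV (0.27 ± 0.082) and that of Dnaja1 in HEA (0.28 ± 0.096). The 4 h values of Hsph1 were 28.9, 36.1 and 35.3 RPKM in EV, 32.8, 32.4 and 27.0 in WT, 30.3, 26.6 and 28.4 in HEA and 28.4, 24.1 and 28.5 in RA. At 8 h they were 40.2, 39.5 and 39.2 in EV, 46.2, 43.7 and 48.9 in WT, 35.5, 34.2 and 32.7 in HEA and 34.3, 36.7 and 33.9 in RA. In each population all 8 h libraries of Hsph1 lay above all 4 h libraries. At 8 h all WT libraries were above, and all HEA and RA libraries below, those of EV. In WT it rose from 4 h to 8 h by 0.59 ± 0.088, adjusted p = 0.000578, a call lost with only the groups compared (0.123). The same step was 0.25 ± 0.088 in EV, 0.26 ± 0.088 in HEA and 0.37 ± 0.088 in RA, none of which passed. The step in WT was not shown to differ from that in EV (0.34 ± 0.12, adjusted p = 0.372 for the difference).

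Against EV, Hsph1 was lower in HEA at 4 h (-0.23 ± 0.088, adjusted p = 0.0443), a call lost under 20 of 37 alternatives. Its other values against EV did not pass: -0.30 ± 0.088, adjusted p = 0.0509 in RA at 4 h, 0.22 ± 0.088, adjusted p = 0.0603 in WT at 8 h, and -0.21 ± 0.088, adjusted p = 0.0533 in HEA at 8 h. Each of these 3 passed under 6 or 7 of the 37 alternatives. The other two were -0.12 ± 0.088, adjusted p = 0.346 in WT at 4 h, opposite in sign to its 8 h value, and -0.18 ± 0.088, adjusted p = 0.296 in RA at 8 h. In the authors' deposited table the 8 h values were 0.24 ± 0.077, adjusted p = 0.00756 in WT, -0.17 ± 0.063, adjusted p = 0.0128 in HEA and -0.19 ± 0.056, adjusted p = 0.0103 in RA. There the HEA value at 4 h did not pass (-0.19 ± 0.12, adjusted p = 0.224). At 8 h WT was above HEA by 0.43 ± 0.088, adjusted p = 0.000399 and above RA by 0.40 ± 0.088, adjusted p = 0.00113. At 4 h neither difference passed (0.11 ± 0.088 and 0.18 ± 0.088).

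Fkbp4 encodes FKBP52, the immunophilin that joins HSP90 complexes with steroid receptors. At 4 h it was at 78.7, 88.1 and 79.3 RPKM in EV, 97.3, 92.4 and 99.8 in WT, 84.5, 84.4 and 83.3 in HEA and 63.8, 75.1 and 74.4 in RA. At 8 h it was at 87.6, 81.1 and 85.0 in EV, 105, 99.0 and 106 in WT, 91.8, 96.5 and 95.8 in HEA and 82.7, 75.5 and 79.0 in RA. WT was highest and RA lowest at both times, and the RA libraries lay below those of EV at 4 h and overlapped them at 8 h. WT was higher than EV by 0.23 ± 0.059, adjusted p = 0.00588 at 4 h and 0.28 ± 0.059, adjusted p = 0.000827 at 8 h. With only the groups compared the 4 h call did not pass (0.0675). RA was lower at 4 h (-0.21 ± 0.059, adjusted p = 0.0443), a call lost under 22 of 37 alternatives, and its 8 h value of -0.10 ± 0.059 did not pass.

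HEA was above EV in Fkbp4 at 8 h (0.16 ± 0.059, adjusted p = 0.0284) but not at 4 h (0.04 ± 0.059). The 8 h call was lost on leaving out replicate 2 (adjusted p = 0.11) or 3 (0.0576) of EV or replicate 2 (0.0831) or 3 (0.0723) of HEA, without the intensity trend (0.051) and with the library total as a covariate (0.26). WT was above RA by 0.44 ± 0.059, adjusted p = 1.05e-05 at 4 h and 0.38 ± 0.059, adjusted p = 3.23e-05 at 8 h, and HEA was above RA by 0.24 ± 0.059 and 0.26 ± 0.059. In RPKM Fkbp4 stood above EV in WT and HEA at 8 h, unlike Dnajb1, which was lower in WT and higher in HEA. The recovered reads of Fkbp4 at 8 h overlapped between EV (2158, 2191 and 2053) and HEA (2008, 2281 and 2126). Mean library totals there were 11.7 M reads in EV and 10.4 in HEA.

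Stip1 encodes HOP, the adaptor between HSP70 and HSP90, and varied little. Its group means ran from 57.2 ± 2.3 RPKM in HEA at 4 h to 68.8 ± 1.2 in WT at 8 h. None of its 6 differences from EV passed, the WT values being 0.11 ± 0.052 at 4 h and 0.08 ± 0.052 at 8 h. WT was above HEA at 4 h (0.21 ± 0.052, adjusted p = 0.00198), where the libraries were at 62.5, 66.2 and 70.9 in WT and 59.0, 54.6 and 58.1 in HEA. The call against HEA did not pass with only the groups compared (0.0574) or after removal of the trend on reads per base (0.0721).

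Hsp90ab1 and Hsp90aa1 encode the constitutive and the inducible cytosolic HSP90. By RPKM they were the most abundant of the 10 genes, above 99.9% and 99.6% of tested genes. Hsp90ab1 was at 148, 169 and 153 in EV at 4 h, 164, 169.8 and 171 in WT, 153, 153 and 152 in HEA and 137, 162 and 161 in RA. Its 8 h values were 155, 146 and 156 in EV, 159, 158 and 173 in WT, 157, 155 and 159 in HEA and 155, 154 and 150.4 in RA. WT overlapped EV at 4 h and lay above it at 8 h. No difference of Hsp90ab1 from EV passed, with values from -0.04 ± 0.057 in HEA at 4 h to 0.10 ± 0.057 in WT at 4 h. WT was above HEA at 4 h (0.14 ± 0.057, adjusted p = 0.0468), a call lost under 25 of 37 alternatives and of the opposite sign under 2 of them (-0.012 with quantile normalisation).

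Hsp90aa1 was at 121, 130.0 and 125 RPKM in EV at 4 h, 134, 138 and 145 in WT, 125, 121 and 126 in HEA and 112, 132 and 130.2 in RA. At 8 h it was at 129.5, 122 and 129 in EV, 138, 135 and 140.4 in WT, 133, 133 and 136 in HEA and 129, 126 and 122 in RA. WT lay above EV without overlap at both times. The difference was 0.15 ± 0.052, adjusted p = 0.0442 at 4 h, a call lost under 23 of 37 alternatives, and 0.12 ± 0.052, adjusted p = 0.0679 at 8 h, which did not pass. In HEA and RA the values against EV were between -0.02 ± 0.052 (HEA, 4 h) and 0.08 ± 0.052 (HEA, 8 h). WT was above RA by 0.16 ± 0.052, adjusted p = 0.0239 at 4 h, a call lost under 8 alternatives, and by 0.14 ± 0.052, adjusted p = 0.0403 at 8 h, lost under 9. At 4 h WT was above HEA by 0.16 ± 0.052, adjusted p = 0.0136, lost under 5, among them leaving out replicate 3 of WT (adjusted p = 0.0754) or replicate 2 of HEA (0.055).

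The read counts of the HSP90 genes were set beside these small differences. Hsp90ab1 and Hsp90aa1 had 1.71 and 1.41 reads per base of gene on average. Their recovered reads followed the library total little: within groups, the slope of log2 reads on log2 total was 0.26 ± 0.052 (SE) for Hsp90ab1 and 0.41 ± 0.085 for Hsp90aa1. A gene in proportion to its library has a slope of 1, and the median over 10113 genes was 1.09. Above 1 read per base the median over 234 genes was 0.458, and between 0.5 and 1 it was 0.803. Reads of Hsp90ab1 ran from 3965 to 4551, a range of 1.15-fold, beside 1.30-fold for the totals.

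RPKM divides by the total, so a gene whose reads hardly follow it gets a higher RPKM in a smaller library. Mean totals at 4 h were 11.1 M reads in EV and 10.1 in WT, and at 8 h 11.7 and 10.8. Hsp90aa1 had 4221, 3911 and 4186 reads in the EV libraries at 4 h and 4145, 4040 and 4193 in those of WT, which overlap. Whether its RNA was higher in WT cannot be told apart from the lower totals. Fkbp4, at 0.946 reads per base and with a slope of 0.43 ± 0.13, had 2158, 2191 and 2053 reads in EV at 8 h and 2532, 2420 and 2307 in WT. At 8 h its reads were higher in all 3 WT libraries, and the totals of WT were lower on average. At 4 h its reads overlapped, at 2023, 1952 and 1950 in EV and 2225, 1997 and 2124 in WT. Dnajb1, with a slope of 1.03 ± 0.28, had 1426, 1389 and 1385 reads in EV at 8 h and 1044, 1077 and 835 in WT, without overlap. Its lower reads in WT go the same way as the lower totals, and its RPKM, which divides by the total, was lower there as well. Dnajc2, with a slope of 0.94 ± 0.27, had 1101, 1214 and 1045 in EV and 1518, 1455 and 1281 in WT at 8 h, again without overlap. The reads of Hspa8, with a slope of 0.70 ± 0.11, did overlap, at 2540, 2291 and 2520 in EV and 2464, 2478 and 2551 in WT at 4 h and 2340, 2678 and 2331 and 2584, 2620 and 2371 at 8 h. Hspa4, with a slope of 0.76 ± 0.16, had 4220, 4371 and 4051 in EV and 4543, 4521 and 4377 in WT at 8 h, where the lowest WT and the highest EV library were nearly equal. Hsp90ab1 and Hspa8 also have processed pseudogenes, and the sources used here do not say how reads shared with them were counted.

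**Figure D3:**
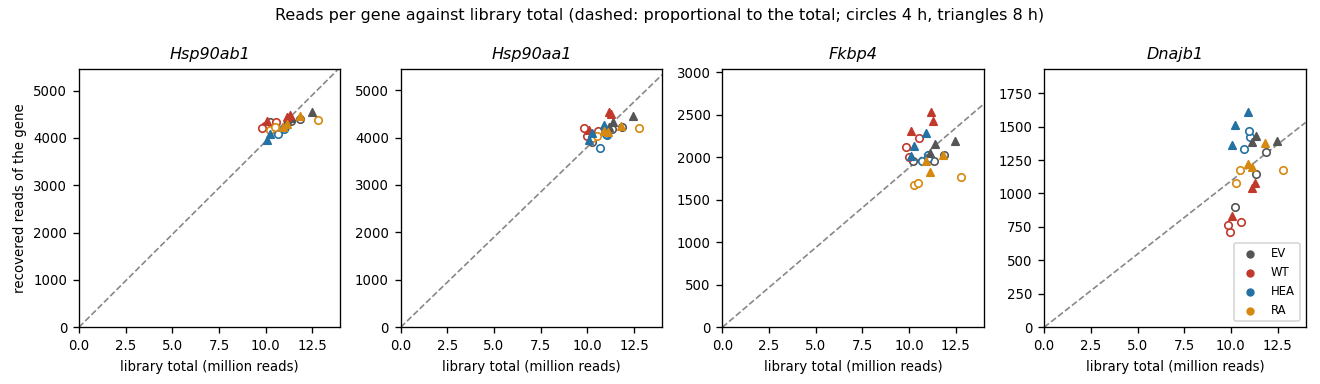
Recovered reads of 4 genes (y axis) against the library total in M reads (x axis), both linear from 0, by population (colour) and time (circles 4 h, triangles 8 h). The dashed line is reads in proportion to the total. Reads of Hsp90ab1 stay between 3965 and 4551 across totals of 9.82 to 12.8 M reads, whereas those of Dnajb1 spread from 712 to 1610 by population.

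The MycER forms were then compared with each other. WT was above HEA in 8 of the 10 genes at 4 h and below it in Dnajb1, with only Hsph1 not passing, where 49.5% of all genes passed (26.9% higher and 22.6% lower). At 8 h the counts were 5 higher, 1 lower and 4 not passing, where 48.0% of all genes passed (24.6% higher and 23.4% lower). The median of the 10 genes was 0.18 at 4 h and 0.14 at 8 h, beside 0.03 and 0.01 over all genes. After removal of the trend on reads per base the number passing at 4 h was 4 and not 9, and after quantile normalisation 5. With those settings Hspa8, Dnaja1, Dnajb1 and Dnajc2 passed under both, and Stip1 under quantile normalisation. Shares over all genes with those settings are not given.

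Against RA, WT was above in 5 genes and below in 1 at 4 h, with 34.8% of all genes passing (15.0% higher and 19.9% lower). At 8 h it was above in 6 and below in 1, with 41.8% passing (17.3% higher and 24.4% lower). Dnajc2, Fkbp4, Hspa4, Hspa8 and Hsp90aa1 were higher at both times, Hsph1 at 8 h, and Dnajb1 was the lower gene at both. HEA was above RA in Dnajb1 and Fkbp4 at both times and in Dnajc2 at 8 h, and below it in Dnaja1 at 4 h. That made 3 of the 10 genes at each time, where 46.3% of all genes passed at 4 h (18.0% higher and 28.3% lower) and 44.9% at 8 h (17.9% higher and 27.0% lower).

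Time in OHT was compared within each population. In WT Hsph1 and Dnajb1 rose from 4 h to 8 h and the other 8 genes did not pass, where 8.46% of all genes passed (4.46% higher and 4.00% lower). Dnajb1 rose by 0.27 ± 0.082, adjusted p = 0.0432, a call lost under 19 of 37 alternatives. Its step in EV, 0.27 ± 0.082, was of the same size and did not pass (adjusted p = 0.223). In EV, HEA and RA limma called 0 of the 10 genes, where 0.0245%, 3.33% and 0.220% of all genes passed. The numbers of these genes with an unadjusted p below 0.05 were 2, 5 and 2 in that order, beside 1437, 2227 and 1211 of all 12268 genes. Voom called 0 of the 10 genes in each. When the difference from EV itself was compared between 4 h and 8 h, limma and voom called 0 of the 10 genes in each form, where limma called 0.0163% of all genes in WT, 0.0163% in HEA and 0% in RA. Without adjustment Hsph1 in WT had a p below 0.05, as 1 of the 10 genes, and 0 did in HEA and in RA. Over all 12268 genes, 1395 did in WT, 408 in HEA and 256 in RA.

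The surrounding chaperone network was described with 8 lists of other genes, 103 in all, of which 95 were tested. Against EV at 8 h, WT had 17 of the 95 higher and 12 lower, and HEA had 11 higher and 31 lower. These are 17.9% higher and 12.6% lower in WT, beside 15.2% and 20.1% of all genes, and 11.6% and 32.6% in HEA, beside 20.2% and 27.5%. In RA limma called 0 of 95 at 8 h, where 13 had an unadjusted p below 0.05, beside 2155 of all 12268 genes. The medians of the 95 genes were 0.02 in WT, -0.09 in HEA and -0.02 in RA. Beside them the medians over all genes were -0.02, -0.05 and 0.00.

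Among 23 HSP90 cochaperones, 8 were higher and 1 was lower in WT at 8 h, with a median of 0.12, and in HEA 4 were higher and 9 lower, with a median of -0.11. In shares, 34.8% were higher and 4.35% lower in WT, beside 15.2% and 20.1% of all genes. In HEA 17.4% were higher and 39.1% lower, beside 20.2% and 27.5%. Telo2, which with HSP90 assembles kinases of the PIKK family, was at 16.2 ± 0.66 RPKM in EV and 35.0 ± 2.9 in WT (1.09 ± 0.12, adjusted p = 1.14e-06). Tomm34 was higher in WT (0.38 ± 0.06) and in HEA (0.23 ± 0.06), and the AAA+ ATPase gene Ruvbl1 was higher in WT (0.39 ± 0.067) and lower in HEA (-0.20, adjusted p = 0.0172). Ppid, an immunophilin like Fkbp4, was lower in HEA (-0.44 ± 0.069, from 74.0 ± 0.72 to 54.6 ± 1.9 RPKM), as was the phosphatase gene Ppp5c (-0.50 ± 0.11), which was higher in WT (0.36, adjusted p = 0.015). Sugt1 was lower in both WT (-0.44 ± 0.12) and HEA (-0.49 ± 0.12), and Cdc37l1 and Rpap3 were higher in HEA (0.46 ± 0.084 and 0.50 ± 0.091). Rpap3 was higher in WT too (0.30, adjusted p = 0.0156).

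Of 8 other HSP70 genes tested, 2 were lower in WT at 8 h and 5 in HEA, and none was higher in either. Over all genes 20.1% were lower in WT, near the share of the HSP70 genes, and 27.5% in HEA. The stress-inducible Hspa1b was at 10.0 ± 1.6 RPKM in EV and 5.33 ± 0.87 in HEA (-0.85 ± 0.13, adjusted p = 1.92e-05), and Hspa1a at 5.35 ± 0.64 and 2.60 ± 0.22 (-0.91 ± 0.16). Their coding sequences are nearly identical, so how reads divide between them is uncertain. Hspa4l, another gene of the HSP110 kind, was lower in HEA (-0.42 ± 0.12), and in WT Hspa2 (-0.65 ± 0.13) and Hspa13 (-0.43 ± 0.11) were lower. Hspa2 was lower in HEA too (-0.35, adjusted p = 0.0283). Of a list of 10 HSP70 cofactors, mostly exchange factors and ubiquitin links, 0 passed in WT at 8 h and 2 were lower in HEA. These were St13 (-0.41 ± 0.078) and Hspbp1 (-0.35 ± 0.13). Over all genes 35.2% passed in WT and 27.5% were lower in HEA, both above the shares of this list. At 4 h 3 of the list were higher and 0 lower in WT, and 1 was higher and 3 lower in HEA. Beside them, 11.6% of all genes were higher and 14.4% lower in WT, and 17.7% and 25.5% in HEA.

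Of 21 J-domain genes tested, 4 were higher and 5 lower in WT at 8 h, and 3 higher and 9 lower in HEA. The WT shares were near those of all genes (15.2% and 20.1%), and in HEA those of all genes were 20.2% and 27.5%. Dnajc27 (0.77 ± 0.12) and Dnajc25 (0.46 ± 0.072) were higher in WT, and Dnajc16 was higher in WT (0.49 ± 0.11) and HEA (0.47 ± 0.11). Dnajb5 was lower in WT (-1.22 ± 0.19) and HEA (-1.12 ± 0.19), as were Dnajc14 (-0.31 ± 0.077 and -0.43 ± 0.077) and Dnaja4 (-0.36 ± 0.11 and -0.72 ± 0.11). Dnajc21 and Dnajb14 were higher in HEA (0.60 ± 0.083 and 0.61 ± 0.095), and Dnajb14 was lower in WT (-0.28, adjusted p = 0.0267). Dnajb1, which stands outside this list, was lower in WT and higher in HEA.

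Of 15 commonly listed targets of HSF1 outside the 10, most of which also stand in another list, 0 were higher and 7 lower in HEA at 8 h, and at 4 h 0 and 8. The lower genes were 46.7% and 53.3% of the list, beside 27.5% and 25.5% of all genes. In WT 1 was higher and 2 lower at 8 h, below the shares of all genes. Hspd1, a mitochondrial chaperonin at 1.17 reads per base, was the higher gene in WT (0.17 ± 0.047), while Cryab (-0.48 ± 0.12) and Dnaja4 were the lower ones. Cryab (-0.46 ± 0.12), Hspb8 (-0.62 ± 0.096) and Hspb6 (-0.84 ± 0.22) were the 3 of 4 tested small heat shock proteins that were lower in HEA at 8 h, where 27.5% of all genes were lower. Hsf1 itself was at 45.8 ± 1.7 RPKM in EV and 52.8 ± 4.1 in WT at 8 h (0.20 ± 0.066, adjusted p = 0.0222). It was the single call among 3 tested heat shock factors and regulators in WT, where 35.2% of all genes passed (15.2% higher). Hsbp1, a binding protein of HSF1, was lower in HEA (-0.28 ± 0.094).

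Of 23 chaperones of the endoplasmic reticulum and mitochondria, 4 were higher and 3 lower in WT at 8 h, and 4 higher and 2 lower in HEA. These shares were near or below those of all genes (15.2% and 20.1% in WT, 20.2% and 27.5% in HEA). Dnajc11 (0.36 ± 0.062) and the mitochondrial HSP90 gene Trap1 (0.30 ± 0.055) were higher in WT. The endoplasmic reticulum genes Dnajc3 (-0.29 ± 0.053), Dnajc10 (-0.29 ± 0.067) and Dnajb9 (-0.82 ± 0.21) were lower in WT. Dnajc1 was higher in WT (0.27 ± 0.064) and in HEA (0.80 ± 0.064, from 17.3 ± 0.53 to 30.6 ± 1.7 RPKM). In HEA Dnajc3 (0.15 ± 0.053) and Hsp90b1 (0.14 ± 0.054) were higher, and Sdf2l1 (-0.24 ± 0.091) and Dnajb9 (-0.53 ± 0.21) lower.

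**Figure D4:**
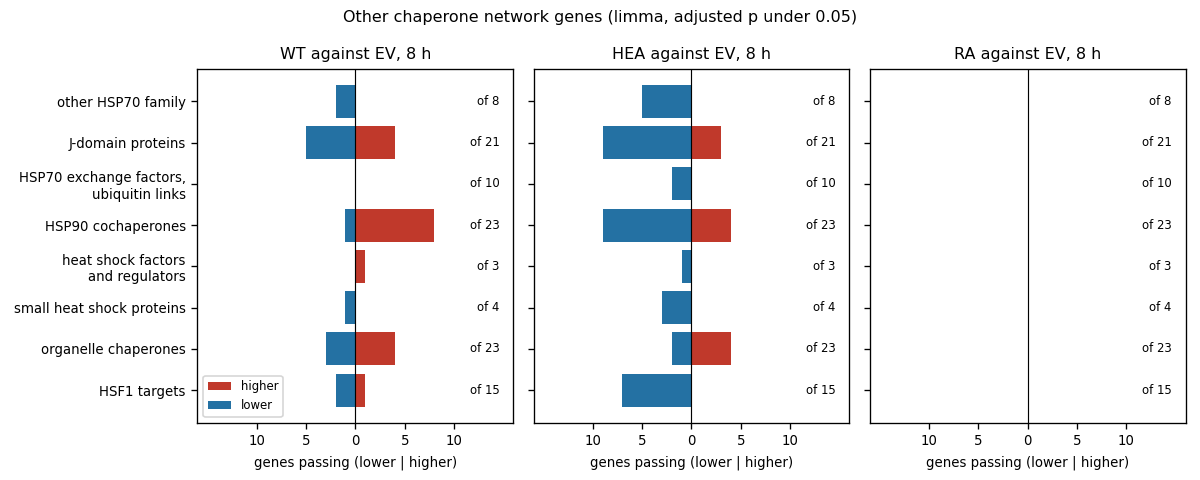
Numbers of other chaperone network genes higher (red, right of 0) and lower (blue, left of 0) than in EV at 8 h at an adjusted p under 0.05 (x axis, genes) for 8 lists (y axis), with the number tested at the right of each row. HSP90 cochaperones show 8 higher and 1 lower of 23 in WT against 4 and 9 in HEA, and RA shows none in any list.

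The genes whose level most resembled each of the 8 genes with a call against EV across the 24 libraries differed from gene to gene. Similarity was the Pearson correlation of log2(RPKM + 0.5), given as a description, since the libraries share groups and totals. Dnaja1 was most like Chordc1 (r = 0.963), which encodes an HSP90 cochaperone, and Sp1 (0.940). Dnajb1 was most like Zrsr1 (0.948) and 2510003E04Rik (0.942), Dnajc2 like Mpp6 (0.954) and Trmt6 (0.952), and Fkbp4 like Rcc2 (0.930) and Clpp (0.923). For Hspa8 the nearest were Rsl1d1 (0.955) and Rpl14 (0.948), for Hspa4 Kti12 (0.950) and Pdrg1 (0.929), and for Hsph1 Ddx23 (0.904) and Psmd7 (0.901). Hsp90aa1 was most like Eif4b (0.912) and Ldha (0.903). Among the 10 genes themselves the highest correlation was between Hspa4 and Fkbp4 (r = 0.909) and the lowest between Hspa8 and Dnajb1 (r = -0.857 over 24 libraries).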

How the data were processed

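RNA-seq of 24 libraries of 3T9 fibroblasts was analysed, in 8 groups of 3 set by vector and time in OHT. The library kit was stranded, per the labels' protocols. Per the submitters' processing notes, the tools were featureCounts 1.4.5-p1, TopHat2 2.0.8, DESeq2, TopHat and SAMtools, and the build was mm9, but which tool did what is not given. The sources used here do not give the strand setting or gene annotation. Per the file headers, the authors deposited RPKM for 21671 genes. A second table that the authors deposited, of each form against EV, holds a baseMean signal (mean normalised coverage of a gene in reads), log2 fold changes with standard errors, a test statistic used as a score, and p-values with adjusted p-values, as its headers name them. Its values are printed only where it is named, and it entered no test.

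RPKM are not counts, so limma-trend was run on log2(RPKM + 0.5) for genes with at least 1 RPKM in at least 3 libraries (12268 genes). A single fit of 8 group means left 16 residual degrees of freedom. Adjustment was by Benjamini-Hochberg, separately in each of 19 comparisons. Whole reads were recovered from the steps of the RPKM values, with lengths set by baseMean. For all 17870 genes above 0, 100% of 362673 values came out whole to within 0.01 read, and 3801 genes were at 0 in all libraries. Voom on these reads called 4440 genes in WT against EV at 8 h, where the RPKM test called 4324.

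The fit was tested on simulated data for WT against EV at 8 h over 12268 genes. It called 10% of genes changed 1.2-fold, 92% of those changed 1.5-fold and 0.03% of unchanged ones. Far fewer genes were changed in the simulation than the 35.2% that passed in the data, and all genes were given the same dispersion. These rates therefore do not give the power for the 10 genes. The 10 genes, the lists and the rules were chosen with earlier results of these data known. Named genes are the 10, per list the up to 3 higher and 3 lower genes of smallest p against EV at 8 h in WT and in HEA, and the 2 genes most like each member called against EV. The alternatives were other pseudocounts (0.1 and 1), no filter or a filter at 5 RPKM, quantile normalisation, median centring, no intensity trend, only the groups compared, a replicate block, voom, removal of a trend on reads per base, leaving out the 3 farthest libraries or each library in turn, and, added after seeing the data, the library total as a covariate. The software was matplotlib 3.10.9, scipy 1.17.1, pandas 2.3.3 and numpy 2.4.6 under Python 3.11.15, and limma 3.58.1 under R 4.3.3. Promoter sequences are from RefSeq (GRCm38.p6), and the files use mm9, of which no coordinates are given.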

Additional observations from a re-analysis of the deposited data

Results flagged for a closer look

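In 3 results WT and HEA differed from EV in opposite directions, both past the threshold, and differed from each other by limma. With both past the threshold on opposite sides of the same EV libraries, the difference between them follows and adds no support. The share of all tested genes with this pattern was not counted, and the values below describe these picked cases. For Hspa8 at 4 h WT against HEA was 0.32 ± 0.047 (adjusted p = 1.20e-05), WT being above EV by 0.17 ± 0.047 and HEA at -0.16 ± 0.047. For Dnajb1 the value was -0.78 ± 0.082 at 4 h (adjusted p = 1.64e-07), with -0.41 ± 0.082 in WT and 0.37 ± 0.082 in HEA against EV. At 8 h Dnajb1 was at -0.66 ± 0.082 (adjusted p = 1.19e-06), with -0.41 ± 0.082 in WT and 0.25 ± 0.082 in HEA. In each of these 3 cases all 3 WT libraries and all 3 HEA libraries lay on opposite sides of all 3 EV libraries. At 8 h Hspa8 and Hsph1 also had WT libraries above and HEA libraries below all those of EV, and WT above HEA by 0.24 ± 0.047, adjusted p = 0.000226 and 0.43 ± 0.088, adjusted p = 0.000399, but for Hspa8 the HEA difference from EV did not pass, and for Hsph1 neither did.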

How the results depend on the processing

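Of 55 calls of these genes over 19 comparisons, 28 were kept under all 37 alternatives and 27 were lost under at least 1; of 135 values not called, 30 passed under at least 1. Among values past the threshold here or under the alternative, signs reversed for Hsp90ab1 in HEA against EV at 8 h (-0.077 with the library total as a covariate, adjusted p = 0.0234), for Hsp90ab1 in WT against HEA at 4 h (-0.012 with quantile normalisation and -0.0071 after removal of the trend on reads per base) and for Hsp90aa1 in WT from 4 h to 8 h (0.10 with that trend removed). Of the 135 values not called, 55 changed sign under at least 1 alternative. The number of the 10 genes passing moved as follows. In WT against EV at 4 h it was 5, and 3 with quantile normalisation, 1 with only the groups compared, 3 with the trend removed, 2 without the 3 farthest libraries and 3 with the library total. In HEA against EV at 4 h it was 4, and 2 with median centring or only the groups compared. In RA against EV at 4 h it was 2, and 0 without the filter, 1 with median centring, 1 without the intensity trend, 0 without the farthest libraries and 0 with only the groups compared. RA at 8 h had 0, and 1 with only the groups compared. WT against HEA had 9 at 4 h, and 5 with quantile normalisation and 4 with the trend removed, and 6 at 8 h, and 10 with the library total. WT against RA at 4 h had 6, and 3 with only the groups compared. HEA against RA at 4 h had 3, and 5 with quantile normalisation or the trend removed. From 4 h to 8 h WT had 2, and 1 without the filter, with median centring, without the intensity trend, with voom or with the library total, 0 with only the groups compared and 4 with the trend removed. HEA had 0, and 3 with quantile normalisation or the trend removed and 1 without the farthest libraries, and RA had 0, and 1 with quantile normalisation or without the farthest libraries. For most of these settings the number of all genes passing is not given. The counts therefore show how calls moved, and not whether the 10 genes differ from other genes. The cause of these moves was not tested.

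Leaving out each library in turn gave 3 to 6 genes in WT against EV at 4 h, 3 to 6 at 8 h, 3 to 4 in HEA at 4 h, 1 to 4 at 8 h, 0 to 3 in RA at 4 h and 0 to 1 at 8 h. WT against HEA ran from 6 to 9 and 5 to 7, WT against RA from 5 to 7 and 6 to 7, HEA against RA from 3 to 5 and 3 to 4, and WT from 4 h to 8 h from 1 to 2. The lowest counts came, for WT against EV, on leaving out replicate 1 of EV or 3 of WT at 4 h and replicate 3 of WT at 8 h, and for HEA at 8 h replicate 2 of EV or 2 or 3 of HEA.

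Over all genes, those passing were 3196 in WT against EV at 4 h (1112 with only the groups compared, 2040 without WT at 4 h replicate 3), 652 in RA at 4 h (335 without the farthest libraries, 3 with only the groups compared, 158 to 799 without single libraries) and 341 in RA at 8 h (805, 1310 and 59 to 483 in that order, and 519 with voom). With only the groups compared 6073 became 3945 in WT against HEA and 4272 became 2793 in WT against RA, both at 4 h. From 4 h to 8 h, WT had 1038 (0 with only the groups compared, 290 to 1269 without single libraries), HEA 409 (2, 105 to 618, 647 with quantile normalisation, 938 without the farthest libraries), RA 27 (0 to 87) and EV 3 (0 to 18). Median centring moved the share of calls that were higher from 44.7 to 57.3% and from 43.0 to 55.2% in WT against EV at 4 h and 8 h, from 42.3 to 53.6% in HEA at 8 h, from 43.0 to 55.6% in WT against RA at 4 h and from 52.7 to 38.1% in WT over time.

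Whether replicate numbers pair the libraries is not in the labels. Residuals of same-numbered libraries had a median correlation of 0.023 over 84 pairs (-0.60 to 0.41). Other pairs had -0.010 over 168 (-0.53 to 0.66). Residuals within a group sum to 0, so these medians cannot settle the question. With the replicate block 0 of the 10 genes passed in RA against EV at 4 h, not 2, and the number passing over all genes in RA over time was 17, not 27. At 3 libraries a group, small differences of the 2 HSP90 genes cannot be told apart from library totals.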
